A study of Mus musculus with 16 samples.

Results

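The genes described here encode the subunits of the respiratory chain and of the ATP synthase that are made from nuclear DNA. They were chosen by symbol from the deposited count table, as all symbols that start with Nduf followed by a, b, c, s or v and a number, *Sdha* to *Sdhd*, symbols that start with Uqcr, *Cyc1*, symbols that start with Cox4 to Cox8 followed by a, b or c, and symbols that start with Atp5. Symbols that contain -ps, which marks pseudogenes, were left out, which removed 3 rows. This gave 87 members of 54347 rows, of which 41 belong to complex I, 4 to complex II, 9 to complex III, 16 to complex IV and 17 to complex V. The count table came from wt1-SAM cells, 1 immortalized line of mouse brown preadipocytes. All its cells stably express the CRISPRa SAM system: a Cas9 that cannot cut, together with activator proteins on the guide, raises transcription at the site of a single guide RNA (sgRNA). In every group, cells were differentiated, received 250 ng of plasmid by reverse transfection on day 4 and were harvested on day 7. The plasmid was either an empty vector or a mix of 2 vectors with sgRNAs against the long noncoding RNA *Gm15551*, and cells either received 1 µM of the β-adrenergic agonist isoproterenol for 24 h or were left as control. The 4 groups, called empty vector control, empty vector stimulated, sgRNA control and sgRNA stimulated here, each had 4 libraries of polyadenylated RNA with the replicate numbers 3 to 6. The sources used here do not say that replicates came from separate cultures, so p-values measure the spread between these libraries, which may be technical.

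In oxidative phosphorylation, complexes I and II pass electrons from NADH and succinate to ubiquinone, complex III passes them on to cytochrome c, and complex IV passes them to oxygen. Complexes I, III and IV pump protons across the inner mitochondrial membrane, and complex V, the ATP synthase, uses the gradient to make ATP. Brown adipocytes are rich in mitochondria, and when norepinephrine or another β-adrenergic agonist activates them, the uncoupling protein UCP1 lets protons flow back without ATP synthesis, so that the chain produces heat.

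Total counts per library ranged from 9053521 to 16546187, and a gene annotated as ribosomal RNA, *CT010467.1*, took from 11.7% to 51.8% of them. The members together held 2.29% to 3.13% of the counts outside that gene. Raw counts of *Gm15551* per library ran from 3 to 18 in empty vector control and from 0 to 5 in empty vector stimulated libraries, and from 19 to 56 in sgRNA control and from 13 to 26 in sgRNA stimulated libraries. Every sgRNA library thus lay above the empty vector libraries of the same treatment. All 10 genes on a list of brown adipocyte markers were tested, but the list includes *Adipoq*, which the paper treats as a common adipocyte marker. The 10 genes summed to 11520 to 25350 CPM, the counts relative to the scaled library size, in every library. However, *Ucp1*, the defining marker, had a mean of only 0.350 CPM in empty vector control and 0.548 CPM in sgRNA control libraries. *Ucp1* rose with isoproterenol (log2 fold change 4.03, SE 0.37, edgeR quasi-likelihood test, adjusted p = 7.36e-06), to means of 6.42 CPM and 9.35 CPM.

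Of the 87 members, 81 passed the filter on low counts and were tested, namely 38 of complex I, 4 of complex II, 9 of complex III, 13 of complex IV and 17 of complex V. The other 6 are isoforms or copies. *Ndufs6b* and *Cox8c* had no count in any library, *Ndufb11b* and *Cox7b2* had 1 count each, *Ndufa4l2*, a gene known for its induction in low oxygen, had 8 counts in 5 libraries, and *Cox6b2* had 59 counts with at most 7 in a library. The symbol rule does not take in all subunits and carriers: *Ndufab1*, *Cox4i1*, *Cox4i2* and *Cycs* are described with the other genes of the pathway. *Ndufa4* stands with complex I by its name, although its protein is known as a subunit of complex IV, and *Cox7a2l* encodes a factor that links complexes III and IV into supercomplexes. *Ndufb4* and *Ndufb4c* are copies by name, and their sequences were not compared here. The quantification may have divided reads between them, so both values are uncertain.

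Levels were set against each other per kilobase of transcript, for the 78 members whose annotated transcript lengths lay within a factor of 2. The median over the tested members was 168.2 CPM per kilobase for complex I, 209.5 for complex II, 265.8 for complex III, 400.1 for complex IV and 373 for complex V, as means over the 16 libraries. Complex I ran from *Ndufs4* with 35.2 to *Ndufa4* with 876.7 CPM per kilobase, and complex V from *Atp5g2* with 38.5 to *Atp5g3* with 857.2 CPM per kilobase, which are 2 genes for the same protein, subunit c of the rotor ring. Complex IV spanned the widest range, since the isoforms known from heart, muscle and brown fat were near the floor. *Cox8a*, the ubiquitous isoform, stood at 1320 CPM per kilobase and its counterpart *Cox8b* at 2.22, *Cox6a1* at 1277 and *Cox6a2* at 5.59, and *Cox7a2* at 400.1 and *Cox7a1* at 1.80.

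**Figure D1:**
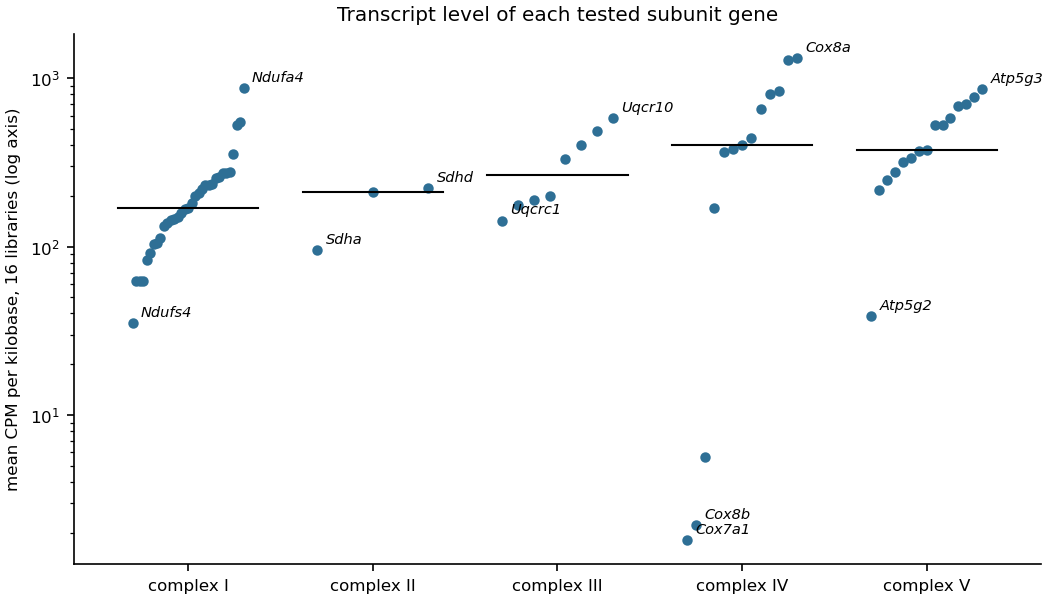
Mean level of each tested member with usable transcript lengths over the 16 libraries, in CPM per kilobase on a log axis, by complex; each point is a gene and black lines are medians. The medians run from 168.2 in complex I to 400.1 in complex IV, and *Cox7a1*, *Cox8b* and *Cox6a2* lie below all other members.

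The promoters of 69 of the 87 members were available as RefSeq windows of 300 bases in the GRCm38.p6 build, from 250 bases before to 50 bases after the start site. Of 6 motifs that are known for genes of this pathway or for the response to cyclic AMP, each searched as exact letters on both strands, NRF1 (GCGCATGCG) was found in 11.6% of members and 1.95% of the 27025 genes with a window. ETS (CCGGAAG), the site of GABPA, was found in 24.6% of members against 9.93% of all genes, YY1 (AAGATGGCG) in 10.1% against 1.64%, and ERRalpha (TCAAGGTCA) in 2.9% against 0.466%. SP (GGGCGG) was found in 40.6% against 38.2%, and the cyclic AMP response element CRE (TGACGTCA) in 5.8% against 2.03%. A gene was counted if any of its windows held the motif. The 27025 genes include many that were not tested in these cells, so members are not set against genes of like level. None of these motifs contains another, though matches may lie over each other in a window. In 21 members no motif was matched, which says only that these letters are absent from the window. The windows below, written 5′ to 3′ on the strand of the gene with motif matches on either strand in capitals, show 4 members of complexes I and III that are described with isoproterenol and the isoform pair *Cox8a* and *Cox8b*. They are *Ndufb3* at chr1:58586147-58586446 on the plus strand, *Ndufs5* at chr4:123718137-123718436 on the minus strand, *Ndufv3* at chr17:31519865-31520164 on the plus strand, *Uqcr11* at chr10:80406772-80407071 on the minus strand, *Cox8a* at chr19:7217567-7217866 on the minus strand and *Cox8b* at chr7:140900397-140900696 on the minus strand.
Ndufb3: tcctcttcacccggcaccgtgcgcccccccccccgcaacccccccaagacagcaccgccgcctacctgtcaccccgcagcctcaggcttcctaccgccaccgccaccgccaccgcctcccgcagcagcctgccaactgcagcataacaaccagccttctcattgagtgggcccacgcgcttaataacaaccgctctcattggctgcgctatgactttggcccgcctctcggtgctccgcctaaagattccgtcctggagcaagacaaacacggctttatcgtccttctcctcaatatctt
Ndufs5: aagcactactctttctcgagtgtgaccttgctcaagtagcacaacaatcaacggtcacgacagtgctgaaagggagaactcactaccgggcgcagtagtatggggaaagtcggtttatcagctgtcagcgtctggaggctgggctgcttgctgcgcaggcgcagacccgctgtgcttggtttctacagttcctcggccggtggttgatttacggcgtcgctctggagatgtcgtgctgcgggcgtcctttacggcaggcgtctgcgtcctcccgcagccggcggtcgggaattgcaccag
Ndufv3: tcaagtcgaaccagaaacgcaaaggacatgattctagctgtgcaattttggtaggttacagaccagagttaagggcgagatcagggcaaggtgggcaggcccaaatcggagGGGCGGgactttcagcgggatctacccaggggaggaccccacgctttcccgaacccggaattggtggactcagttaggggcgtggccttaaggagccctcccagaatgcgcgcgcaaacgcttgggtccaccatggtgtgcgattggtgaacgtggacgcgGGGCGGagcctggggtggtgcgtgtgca
Uqcr11: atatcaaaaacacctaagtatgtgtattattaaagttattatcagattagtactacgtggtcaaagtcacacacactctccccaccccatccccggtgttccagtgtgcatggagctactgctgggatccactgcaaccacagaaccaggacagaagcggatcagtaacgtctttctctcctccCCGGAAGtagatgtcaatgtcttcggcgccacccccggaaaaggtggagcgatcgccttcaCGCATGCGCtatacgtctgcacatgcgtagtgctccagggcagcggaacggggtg
Cox8a: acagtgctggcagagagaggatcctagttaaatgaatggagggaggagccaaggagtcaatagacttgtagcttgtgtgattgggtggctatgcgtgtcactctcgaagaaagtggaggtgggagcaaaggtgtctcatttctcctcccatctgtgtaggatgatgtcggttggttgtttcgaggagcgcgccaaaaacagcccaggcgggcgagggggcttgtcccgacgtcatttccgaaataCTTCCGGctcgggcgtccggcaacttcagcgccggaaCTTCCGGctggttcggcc
Cox8b: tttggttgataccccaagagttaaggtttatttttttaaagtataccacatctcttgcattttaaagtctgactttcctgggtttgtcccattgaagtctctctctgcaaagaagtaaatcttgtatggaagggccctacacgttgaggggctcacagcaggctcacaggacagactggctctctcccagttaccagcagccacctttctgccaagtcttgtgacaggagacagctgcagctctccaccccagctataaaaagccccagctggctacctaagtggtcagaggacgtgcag
The *Ndufv3* window holds SP at 2 places, the *Uqcr11* window ETS and NRF1, and the *Cox8a* window ETS at 2 places. The windows of *Ndufb3*, *Ndufs5* and *Cox8b* hold none of the 6 motifs. GC content was 62.3% for *Ndufb3*, 59.7% for *Ndufv3*, 56% for *Cox8a* and 48.3% for *Cox8b*.

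Over all members, summed levels were 21420 ± 3776 CPM (SD, n = 4) in empty vector control, 19180 ± 2748 in empty vector stimulated, 20660 ± 1150 in sgRNA control and 20510 ± 2423 in sgRNA stimulated libraries. The ranges of the 4 groups overlapped, from 16610 to 25000 CPM in the first and from 16900 to 22030 CPM in the last. Complex I, the NADH dehydrogenase, summed to 6200 ± 1150, 5312 ± 736 (both n = 4), 6008 ± 313 and 5768 ± 784 CPM in the same order of groups. Complex II summed to 969 ± 156, 886 ± 131, 951 ± 102 and 932 ± 121 CPM, and complex III to 2667 ± 537, 2342 ± 350, 2603 ± 200 and 2522 ± 349 CPM. Complex IV summed to 4248 ± 896, 3901 ± 670, 4039 ± 229 and 4200 ± 523 CPM, and complex V to 7337 ± 1094, 6738 ± 945, 7053 ± 338 and 7090 ± 712 CPM. In each complex the empty vector control group had a higher mean than its stimulated counterpart, and no difference exceeded the SD of the control group. Within pairs of the same replicate number, the stimulated library had the lower sum in all 4 empty vector pairs for complexes I, II, III and V and in 2 of 4 for complex IV. In sgRNA cells it did so in all 4 pairs for complex II, in 3 for complexes I and III and in 1 for complexes IV and V. In these bulk samples, fewer cells of a type and less RNA per cell cannot be told apart.

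**Figure D2:**
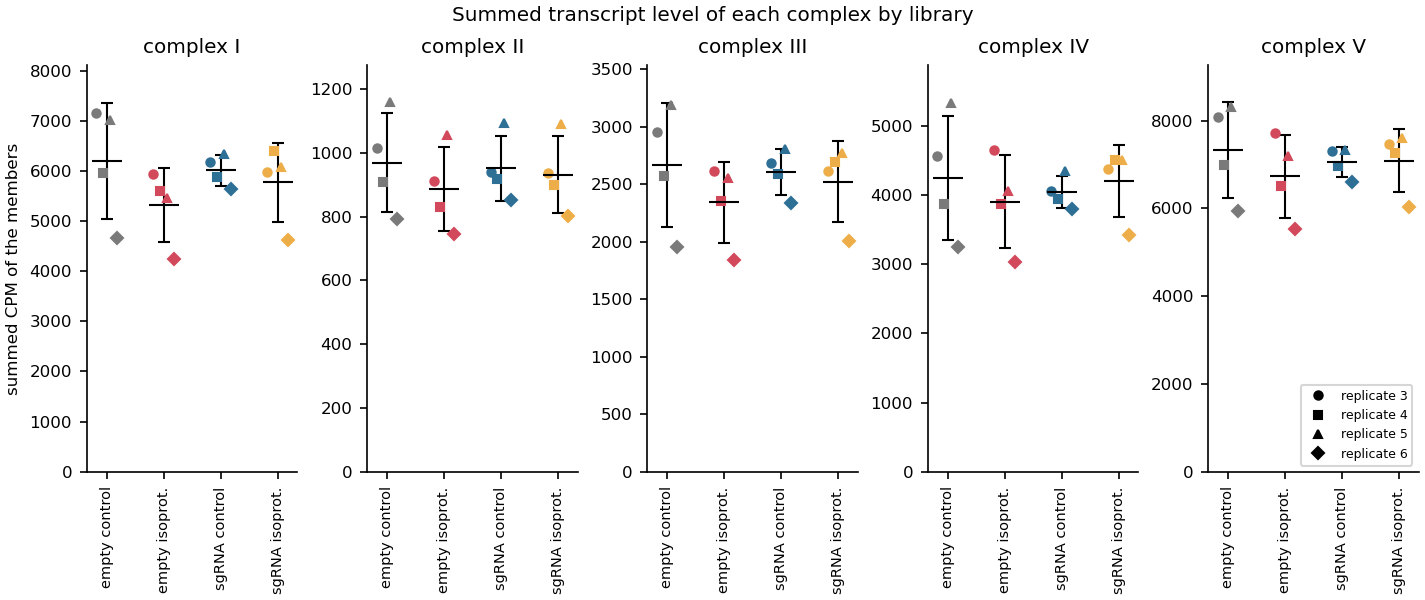
Summed CPM of the members of each complex in each of the 16 libraries; symbols mark the replicate number, black dashes and bars are the mean and SD of 4 libraries, and each axis starts at 0. The replicate 6 library lies lowest in every group of every complex, and groups overlap in every complex.

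The comparison of stimulated with control libraries, averaged over both plasmids, asked how β-adrenergic stimulation changes these transcripts. In the test without a replicate term no member passed (adjusted p under 0.05), beside 4.49% of all 13150 genes tested, and none passed with an absolute log2 fold change over 0.5, beside 2.65%. Unadjusted p under 0.05 was reached by 8 members, or 9.88%, against 17.7% of all genes, and DESeq2 passed 2 members, both lower, or 2.47% against 3.76% of all genes lower. The median log2 fold change of the members was −0.11 against 0.0047 over all genes, and 63 of 81 members lay below 0, compared with 49% of all genes. By complex the median was −0.12 for complex I, −0.08 for complex II, −0.18 for complex III, −0.02 for complex IV and −0.05 for complex V. Over all members it was −0.05 without empty vector stimulated replicate 6, −0.06 without sgRNA stimulated replicate 6 and −0.07 without empty vector control replicate 3 or 5.

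Replicate numbers pair these libraries, and in the test with the replicate number as a block 21 of 81 members fell with isoproterenol and none rose. These 21 are 25.9% of the members tested, where 10.4% of all genes passed lower and 21.3% passed in either direction. None of the 21 had an absolute log2 fold change over 0.5, where 5.7% of all genes had one and passed. The members that fell were 13 of 38 in complex I, 1 of 4 in complex II, 4 of 9 in complex III, none of 13 in complex IV and 3 of 17 in complex V. With the same block DESeq2 passed 24 members, all lower and among them 20 of the 21, or 29.6% against 9.89% of all genes lower. Of the 20 fits with the block that left out a library or a replicate number, all passed *Ndufb3*, *Ndufs5*, *Ndufv3* and *Atp5j*, whereas *Ndufa13*, *Ndufs3*, *Ndufv1* and *Uqcrq* passed in only 7, 8, 6 and 9 of them. The number that passed was 11 without replicate 5 and 11 without replicate 6. No share of all genes is given for these refits, so fewer calls over all genes cannot be told from a change in the members. No member had all stimulated libraries below all control libraries, while 11 members were lower in all 8 pairs of the same plasmid and replicate number and 27 in at least 7. These counts were made over the members only, with no count over all genes beside them, so they show no trait particular to the members.

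**Figure D3:**
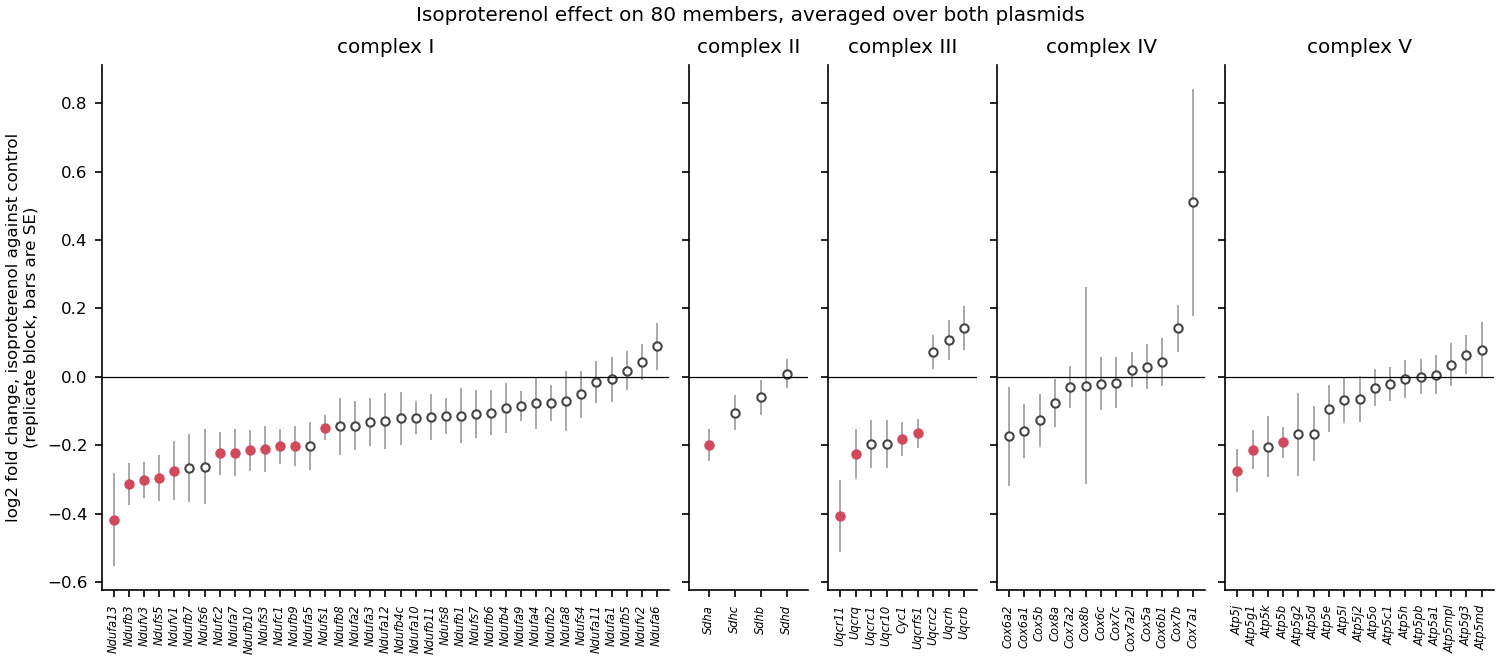
Log2 fold change of isoproterenol against control for 80 of the 81 tested members in the fit with the replicate block, averaged over both plasmids, by complex; bars are SE, and filled red points are the 20 of these with an adjusted p under 0.05. All filled points lie below 0, none is in complex IV, and *Cox7a1* has the largest value above 0 with a wide error.

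Complex I has core subunits, which carry the flavin, the iron-sulfur clusters and the quinone site, and accessory subunits around them. With the block 4 of 7 nuclear core subunits fell, and 9 of 31 tested accessory subunits did so, where 10.4% of all genes passed lower. This division was made after values were seen, and the difference between its groups was not tested.

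*Ndufb3*, *Ndufs5* and *Ndufv3* are accessory subunits, of the membrane arm, the intermembrane side and the NADH-oxidizing module. In replicates 3, 4, 5 and 6 *Ndufb3* had 159.2, 129.5, 159.3 and 99.1 CPM in empty vector control and 117.4, 108.9, 101.3 and 88.2 CPM in stimulated libraries, and 141.5, 129.6, 126.9 and 118.3 CPM against 118.5, 125.3, 112.0 and 84.1 CPM in sgRNA cells. It was lower in all 8 pairs although control and stimulated libraries overlapped within each plasmid, with a log2 fold change of −0.31 (SE 0.06) with the block and an edgeR adjusted p of 0.00183. *Ndufv3* had 179.1, 154.4, 163.9 and 122.6 CPM against 122.5, 135.0, 115.3 and 97.7 CPM in empty vector cells, and 159.1, 149.2, 153.4 and 136.0 CPM against 132.1, 149.3, 134.7 and 104.4 CPM in sgRNA cells. It was lower in 7 of 8 pairs, the exception being replicate 4 of sgRNA cells, where the levels were 149.2 and 149.3 CPM. Its log2 fold change with the block was −0.30 (SE 0.05, edgeR adjusted p = 0.000644). *Ndufs5* went from 105.1, 88.9, 99.3 and 60.1 CPM to 72.9, 72.2, 69.1 and 54.2 CPM in empty vector cells and from 91.8, 88.8, 87.8 and 79.6 CPM to 77.3, 93.4, 78.8 and 55.1 CPM in sgRNA cells. Here replicate 4 of sgRNA cells was higher after stimulation, and the log2 fold change was −0.30 (SE 0.07, edgeR adjusted p = 0.00502) with the block.

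**Figure D4:**
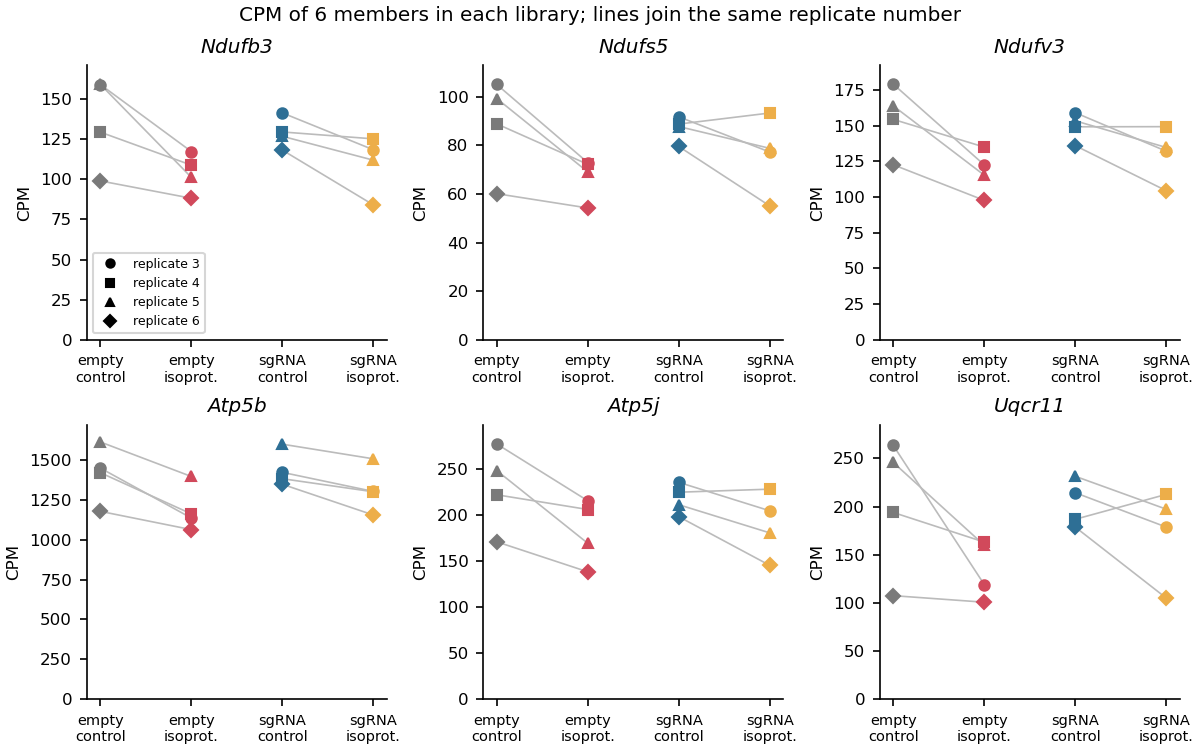
CPM of *Ndufb3*, *Ndufs5*, *Ndufv3*, *Atp5b*, *Atp5j* and *Uqcr11* in each library, with grey lines that join the control and stimulated library of the same plasmid and replicate number; axes start at 0. Lines descend in all 8 pairs of *Ndufb3* and *Atp5b* and in 7 of 8 pairs of the other 4 genes, while the treatments overlap within each plasmid.

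The member of complex I with the lowest estimate was *Ndufa13*, an accessory subunit also known as GRIM-19, at −0.42 (SE 0.14, edgeR adjusted p = 0.0399) with the block and −0.39 (SE 0.23) without it. Its libraries ran from 66.5 to 219.5 CPM in empty vector control and from 63.8 to 141.7 CPM in empty vector stimulated cells, a wide spread around overlapping ranges. It was lower in 7 of 8 pairs but passed in only 7 of the 20 fits with the block that left something out. Its estimate ran from −0.61 to −0.27 in those fits. Other accessory subunits that fell were *Ndufa7* (−0.22), *Ndufb9* (−0.20), *Ndufb10* (−0.21), *Ndufc1* (−0.20) and *Ndufc2* (−0.22), as log2 fold changes with the block. *Ndufs1*, which carries iron-sulfur clusters, was at −0.15 (SE 0.04, edgeR adjusted p = 0.00809), the smallest change of the 21, and lower in all 8 pairs. *Ndufa4* did not pass (−0.08, SE 0.07).

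In complex II, *Sdha*, which carries the flavin that oxidizes succinate, fell with the block (log2 fold change −0.20, SE 0.05, edgeR adjusted p = 0.00615). Its levels in replicates 3, 4, 5 and 6 were 239.2, 234.3, 409.0 and 260.2 CPM in empty vector control and 171.5, 191.9, 384.6 and 242.8 CPM in empty vector stimulated libraries. In sgRNA cells they were 233.8, 243.3, 436.2 and 286.7 CPM in control and 210.2, 214.8, 406.8 and 246.3 CPM in stimulated libraries. Replicate 5 was the highest library of *Sdha* in every group, all groups overlapped, and the stimulated library was lower in all 8 pairs. Without the block the SE was 0.20 and the adjusted p 0.72. The iron-sulfur subunit *Sdhb* (−0.06, SE 0.05) and the membrane anchors *Sdhc* (−0.10, SE 0.05) and *Sdhd* (0.01, SE 0.04) did not pass.

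In complex III, both subunits that carry the electrons to cytochrome c fell with the block. *Cyc1*, cytochrome c1, was at −0.18 (SE 0.05, edgeR adjusted p = 0.0159) and *Uqcrfs1*, the Rieske iron-sulfur protein, at −0.16 (SE 0.04, edgeR adjusted p = 0.0118), and each was lower in all 8 pairs. *Cyc1* had 342.9, 320.6, 366.4 and 198.9 CPM in empty vector control and 246.3, 269.3, 325.1 and 189.5 CPM in empty vector stimulated libraries, and 330.3, 308.0, 347.5 and 232.4 CPM against 291.0, 301.1, 333.7 and 201.9 CPM in sgRNA cells. Replicate 6 was its lowest library in every group, and the groups overlapped. Of the small subunits, *Uqcr11* and *Uqcrq* fell as well. *Uqcr11* (ENSMUSG00000020163, chr10:80402997-80406830, GRCm38), whose promoter window with ETS and NRF1 is printed above, had 263.6, 193.9, 245.9 and 107.4 CPM in empty vector control and 119.0, 163.1, 159.8 and 100.6 CPM in empty vector stimulated libraries. In sgRNA cells its levels were 214.4, 186.8, 231.5 and 178.7 CPM in control and 178.7, 212.7, 197.3 and 104.9 CPM in stimulated libraries, so that 7 of 8 pairs were lower, with overlap of both treatments within each plasmid. Its log2 fold change was −0.41 (SE 0.11, edgeR adjusted p = 0.0127) with the block, and *Uqcrq* was at −0.23 (SE 0.07). The core proteins did not pass, with *Uqcrc1* at −0.20 (SE 0.07) and *Uqcrc2* at 0.07 (SE 0.05), nor did *Uqcr10* (−0.20, SE 0.07), which was lower in all 8 pairs, *Uqcrb* (0.14, SE 0.06) and *Uqcrh* (0.11, SE 0.06).

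In complex IV, cytochrome c oxidase, no member passed with or without the block, and the estimates without it ran from −0.16 to 0.49. *Cox8a*, the ubiquitous isoform of subunit VIII, was at −0.08 (SE 0.07) with the block, *Cox6a1* at −0.16 (SE 0.08), *Cox6b1* at 0.04 (SE 0.07) and *Cox7b* at 0.14 (SE 0.07). *Cox7a1*, the isoform of heart, muscle and brown fat, had the highest estimate of all members at 0.51 (SE 0.33), but rested on 165 counts in all, at most 21 in a library. Its estimate without the block, 0.49, was 0.21 without empty vector stimulated replicate 6 and 0.82 without sgRNA control replicate 6. *Cox8b* had 152 counts over the 16 libraries and an estimate of −0.03 (SE 0.29). It was lower after stimulation in 3 of 4 empty vector pairs and in 0 of 4 sgRNA pairs. Its estimate without the block, −0.02, was −0.26 without empty vector stimulated replicate 5 and 0.30 without sgRNA control replicate 5. Counts of *Cox7a1* were 0.308% of those of *Cox7a2*, counts of *Cox8b* 0.103% of those of *Cox8a* and counts of *Cox6a2* 0.530% of those of *Cox6a1*.

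Whether the isoforms shifted against each other was tested on the log2 ratio of their counts, 0.5 added to each, by an exact two-sided permutation test over 4900 arrangements of the labels. The ratio of *Cox7a1* to *Cox7a2* was 0.56 higher with isoproterenol on the log2 scale, in 7 of 8 pairs (exact p = 0.199, 0.686 after Benjamini-Hochberg adjustment over 8 tests). With the pairs kept, an exact sign-flip test, whose smallest possible p is 0.00781, gave p = 0.0625 (adjusted 0.25), and the difference ran from 0.34 without replicate 5 to 0.76 without replicate 3. The ratio of *Cox7a2l* to *Cox7a2* was 0.10 higher in sgRNA cells, in 7 of 8 pairs (exact sign-flip p = 0.0234, adjusted 0.188, and exact permutation p = 0.169 without the pairs), and 0.05 without replicate 5. None of the 8 tests passed after adjustment.

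In complex V, 3 of 17 members fell with the block, each in a different part of the enzyme. *Atp5b* encodes the catalytic β subunit of F1 and had 1451, 1422, 1615 and 1179 CPM in empty vector control and 1137, 1163, 1398 and 1064 CPM in empty vector stimulated libraries. In sgRNA cells it had 1424, 1384, 1601 and 1349 CPM in control and 1304, 1302, 1509 and 1156 CPM in stimulated libraries. All 8 pairs were lower with overlapping groups, and the log2 fold change was −0.19 (SE 0.05, edgeR adjusted p = 0.00725). *Atp5j*, which encodes subunit F6 of the peripheral stalk, had 277.0, 221.8, 248.1 and 170.7 CPM against 215.3, 205.8, 169.1 and 138.1 CPM in empty vector cells. In sgRNA cells its levels were 235.3, 224.6, 211.0 and 198.0 CPM against 204.4, 227.9, 180.4 and 145.1 CPM, so that 7 of 8 pairs were lower, and the log2 fold change was −0.27 (SE 0.06, edgeR adjusted p = 0.00529). *Atp5g1*, 1 of 3 genes for subunit c, was at −0.21 (SE 0.06, edgeR adjusted p = 0.0153) and lower in all 8 pairs. The other genes for the same subunit c did not pass, with *Atp5g2* at −0.17 (SE 0.12) and *Atp5g3* at 0.06 (SE 0.06).

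Within empty vector cells no member passed without the block, beside 0.913% of all genes, while 6 members had an unadjusted p under 0.05, or 7.41% against 10.1% of all genes. With the block 15 members fell, or 18.5% against 5.07% of all genes lower, and all 15 were among the 21. That number was 3 without empty vector control replicate 3, at most 7 without any one replicate number and 18 without empty vector control replicate 6. These refits too are given without a share of all genes. Within sgRNA cells no member passed without the block, beside 0.722% of all genes, and no member had an unadjusted p under 0.05, beside 8.46%. With the block 1 member fell there, where 4.12% of all genes passed lower. DESeq2 without the block passed no member in either of these comparisons, beside 2.23% of all genes in empty vector and 1.82% in sgRNA cells. The median log2 fold change of the members was −0.18 in empty vector and −0.02 in sgRNA cells, beside 0.0042 and 0.0052 over all genes. The median of sgRNA cells changed sign without sgRNA stimulated replicate 6 (0.08) or without replicate 6 as a whole (0.04), and ran down to −0.08 without replicate 4. That of empty vector cells was −0.08 without empty vector stimulated replicate 6, −0.10 and −0.12 without empty vector control replicates 5 and 3, and −0.28 without empty vector control replicate 6.

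The difference between these effects, the interaction, was tested directly. No member passed, as no gene did (0% with and without the block), and no member had an unadjusted p under 0.05 without the block, beside 0.395% of all genes, or 1 member with it (1.23% against 1.51%). DESeq2 passed no member and no gene either. The estimate of the interaction lay above 0, that is toward a higher log2 fold change in sgRNA cells, for 80 of 81 members and 52.7% of all genes, with a median of 0.15. That median was 0.06 without empty vector stimulated replicate 6, 0.08 without replicate 5 and 0.26 without empty vector control replicate 6, and stayed above 0 in all fits that left something out. Members vary together, so these are not 80 separate observations. Over the members, the median difference of stimulated minus control log2 CPM in replicates 3, 4, 5 and 6 was −0.14, −0.07, −0.35 and −0.11 in empty vector cells and 0.01, 0.11, −0.01 and −0.19 in sgRNA cells. In replicate 6 the decrease was thus larger in sgRNA cells, and replicate 5 of empty vector cells, where 79 of 81 members were lower, differed most from the rest.

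**Figure D5:**
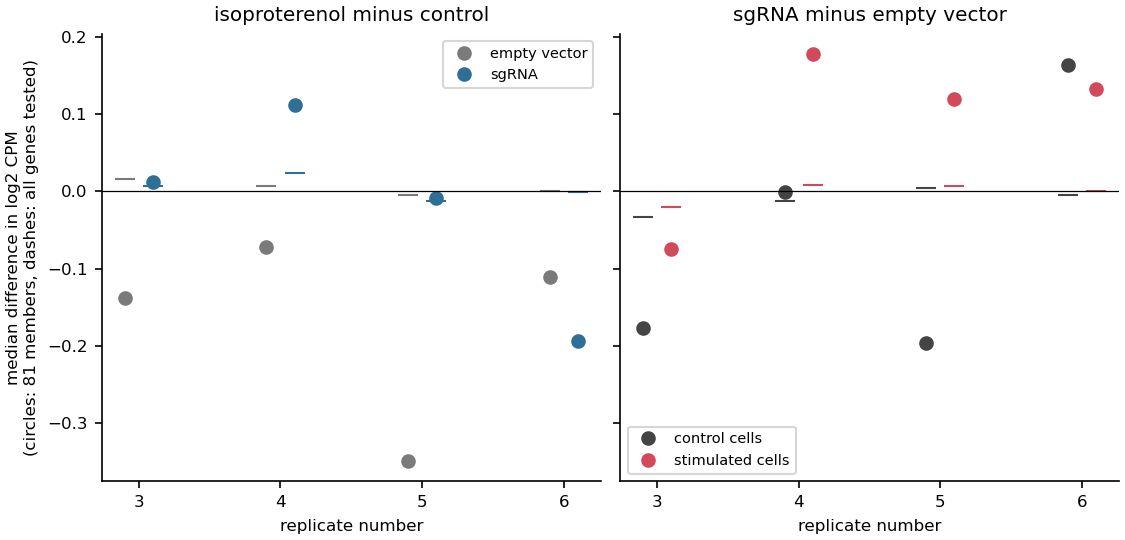
Median difference in log2 CPM between paired libraries of the same replicate number, over the 81 members (circles) and over all genes tested (dashes), for isoproterenol minus control in each plasmid (left) and sgRNA minus empty vector in each treatment (right). The median over the members was below 0 after isoproterenol in all 4 empty vector pairs, from −0.07 to −0.35, whereas sgRNA pairs lay on both sides of 0; both panels use the same 16 libraries.

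The comparison of sgRNA with empty vector cells asked whether activation of *Gm15551* changes these transcripts. Averaged over both treatments no member passed, as no gene did (0%), 1 member had an unadjusted p under 0.05 (1.23% against 3.32% of all genes), and DESeq2 passed no member, beside 0.0989% of all genes. With the block no member passed either, beside 0.586% of all genes, and 9 had an unadjusted p under 0.05 (11.1% against 11.5%). With no filter on low counts the blocked fit passed 10 of 85 members, 9 higher (10.6% against 0.804% of all genes) and 1 lower (1.18% against 0.672%). That fit took in 34821 genes, including those with low counts, whereas most members have high counts. Its shares thus do not compare like with like. In control cells 0 members and 0% of all genes passed without the block. There 0 members and 1.48% of all genes lay under 0.05 before adjustment of p. The blocked fit passed 0 members, beside 0.038% of all genes. It placed 2 members (2.47%) and 5.73% of all genes under 0.05 before adjustment. In stimulated cells 0 members and 0% of all genes passed without the block. There 1 member and 1.49% of all genes lay under 0.05 before adjustment. The blocked fit also passed 0 members, beside 0.137% of all genes. It placed 10 members (12.3%) and 7.29% of all genes under 0.05 before adjustment. DESeq2 without the block passed no member in either treatment, beside 0.0228% of all genes in control and 0.038% in stimulated cells.

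The median sgRNA effect over the members was 0.03 on the log2 scale, −0.06 in control and 0.09 in stimulated cells, and 79 of 81 averaged estimates lay within 0.25 of 0, with a median SE of 0.11 without and 0.07 with the block. The member with the smallest p without the block was *Atp5g2* (−0.32, SE 0.13, edgeR adjusted p = 0.9997). Its levels were 23.8, 22.8, 32.7 and 23.7 CPM in empty vector control and 30.3, 25.1, 28.1 and 14.1 CPM in empty vector stimulated libraries. In sgRNA cells they were 23.4, 21.9, 17.8 and 23.9 CPM in control and 19.8, 17.1, 17.9 and 18.5 CPM in stimulated libraries. The sgRNA library was higher in 2 of 8 pairs. The plasmids overlapped within each treatment, while all sgRNA stimulated libraries lay below all empty vector control libraries. *Cox7a1* was the other member outside that range, at 0.41 (SE 0.41), which came to 0.08 without sgRNA control replicate 6 and 0.70 without empty vector stimulated replicate 6. The per-replicate medians of sgRNA minus empty vector were −0.18, −0.0016, −0.20 and 0.16 in control cells and −0.07, 0.18, 0.12 and 0.13 in stimulated cells, so that replicates differed in sign in both treatments. The averaged median of 0.03 also changed sign, to −0.03 without empty vector control replicate 6 and to −0.01 without empty vector stimulated replicate 6 or replicate 6 as a whole. That of control cells came to 0.01, 0.000253 and −0.17 when the empty vector control library of replicate 3, 5 or 6, respectively, was left out. That of stimulated cells came to 0.01 without empty vector stimulated replicate 6, to 0.18 without empty vector stimulated replicate 3 and to 0.16 without sgRNA stimulated replicate 6. A missed threshold does not show that the levels were alike.

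Other genes of the pathway were taken from lists. Under isoproterenol their counts with the block stand beside 10.9% of all genes passing higher and 10.4% lower. Counts without the block stand beside 2.06% of all genes higher and 2.43% lower. Of 8 subunits and carriers that the symbol rule misses, none passed without the block and 3 fell with it under isoproterenol. These were *Ndufab1*, the acyl carrier protein of complex I (log2 fold change −0.19, SE 0.06), and the electron transfer flavoprotein subunits *Etfa* (−0.20, SE 0.05) and *Etfb* (−0.53, SE 0.13). *Cox4i1*, the main subunit IV isoform, was at −0.10 (SE 0.07) and *Cycs*, cytochrome c, at 0.09 (SE 0.07), and neither passed. *Cox4i2*, the other subunit IV isoform, had 534 counts in all libraries together and was at 0.33 (SE 0.17) with the block, which did not pass either. Of 51 tested assembly factors, 1 fell without the block, *Atpaf2*, a chaperone of F1 (−0.51, SE 0.10, edgeR adjusted p = 0.00594), from means of 87.0 ± 15.1 to 61.3 ± 8.3 CPM in empty vector and 86.6 ± 10.0 to 60.8 ± 6.9 CPM in sgRNA cells (SD, n = 4). With the block 4 rose (*Ndufaf4*, *Ndufaf5*, *Sdhaf4* and *Coa5*) and 8 fell, among them *Acad9* (−0.25), *Surf1* (−0.23) and *Coa6* (−0.30). The median of the assembly factors was −0.10.

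Of 9 tested transcriptional regulators of respiratory genes, *Ppargc1a*, which encodes the coactivator PGC-1α, rose with isoproterenol (log2 fold change 0.71, SE 0.15, edgeR adjusted p = 0.0128). Its means were 37.9 ± 9.3 and 60.3 ± 19.4 CPM in empty vector control and stimulated cells and 40.7 ± 7.5 and 68.8 ± 13.4 CPM in sgRNA cells (SD, n = 4). With the block *Gabpa* (0.21) and *Gabpb1* (0.23), which encode the parts of the ETS-site factor, rose too, and *Ppargc1b* fell (−0.35, SE 0.07). *Nrf1* was at −0.08 (SE 0.06) and *Tfam*, which maintains mitochondrial DNA, at 0.05 (SE 0.04), and neither passed. Of 10 targets of the hypoxia-inducible factor, *Vegfa* (0.17) and *Slc2a1* (0.34) rose with the block. *Ndufa4l2*, with the 8 counts over all libraries given above, was not tested. For the sgRNA effect no gene of these lists passed with or without the block. Among the promoters, 1 of the 16 members with a window that fell held NRF1 (6.25%) against 7 of the other 53 (13.2%), and 3 held ETS (18.8%) against 14 (26.4%). SP was held by 31.2% of those that fell against 43.4%, ERRalpha by none of 16 against 3.77%, YY1 by 12.5% against 9.43% and CRE by 6.25% against 5.66%, so that the shares differed in both directions. The other 53 include *Cox6b2* and *Cox7b2*, which hold SP but were not tested and so could not pass.

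The members moved together between libraries. The mean pairwise correlation of their deviations from the group means was 0.61 over the 16 libraries, as a description of libraries that share replicate numbers, beside 0.00051 over all genes tested. It was 0.69 in complex I, 0.43 in complex II, 0.65 in complex III, 0.45 in complex IV and 0.62 in complex V. The median deviation of the members was highest in empty vector control replicates 3 (0.27) and 5 (0.33) and lowest in empty vector stimulated replicate 6 (−0.42), empty vector control replicate 6 (−0.28) and sgRNA stimulated replicate 6 (−0.27). The share of the ribosomal RNA gene was higher in the stimulated library in all 4 empty vector pairs, by the most in replicate 3 (20.9% and 41.6%), and in 2 of 4 sgRNA pairs. It was lower in the sgRNA than in the empty vector library in all 8 pairs, by the most in replicate 5 (47.28% and 20.22% in control, 51.76% and 20.04% in stimulated cells). With that share as a covariate beside the block, 19 members fell with isoproterenol, or 23.5% against 9.35% of all genes lower. In the same fit the median of the members was 0.05 for the averaged sgRNA effect and 0.16 for the interaction, beside 0.04 and 0.14 with the block alone. For the averaged sgRNA effect 70 members lay above 0, beside 50 with the block alone. In stimulated cells the median was 0.13 with 79 members above 0, beside 0.10 and 73. In control cells it was −0.02 with 25 above 0, beside −0.04 and 24. Without the block the covariate moved the averaged median from 0.03 to 0.05 and that of stimulated cells from 0.09 to 0.14.

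Markers of other cell types were low. The 6 preadipocyte markers, of which 3 were tested, summed to 7.63 to 94.3 CPM, and *Ly6a* rose with isoproterenol (log2 fold change 1.09, SE 0.11) and fell with sgRNAs (−0.74, SE 0.11) with the block. Of 4 macrophage markers *Cd68* was tested and rose with isoproterenol (0.91, SE 0.17, edgeR adjusted p = 0.00518), while the list summed to 6.44 to 14.1 CPM in control and 13.5 to 22.4 CPM in stimulated libraries. The 7 muscle markers summed to 1.04 to 4.07 CPM with *Myod1* at 0 in all libraries, and the 3 endothelial markers to 1.42 to 3.09 CPM. Of the 10 genes on the brown adipocyte list 2 rose and 1 fell with isoproterenol without the block (2.06% of all genes higher and 2.43% lower), and 3 rose and 4 fell with it (10.9% and 10.4%). Among those that fell was *Adipoq* (−1.06, SE 0.18, edgeR adjusted p = 0.00222), which encodes the adipocyte hormone adiponectin and which the paper treats as a common adipocyte marker. With sgRNAs *Cidea*, which encodes a lipid droplet protein of brown fat, rose with the block (1.046, SE 0.21, edgeR adjusted p = 0.0348), where 0.137% of all genes passed higher, and no marker of that list passed without it. The part of these markers in the results was not tested.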

How the data were processed

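Polyadenylated RNA of 16 libraries was sequenced in paired ends. The authors filtered reads with cutadapt, quantified them with salmon against GENCODE transcripts of GRCm38 and deposited estimated counts per gene as whole numbers. Tool versions and use of strand are not given in the sources used here, so overlapping genes and copies are uncertain. Groups and replicate numbers came from the sample titles. Counts were tested with edgeR 4.0.16 in R 4.3.3 (filterByExpr, minimum count 10 and total 15, leaving 13150 genes; TMM scaling; 4 group means; glmQLFTest, two-sided, Benjamini-Hochberg over all genes tested). CPM values are TMM-scaled, and log2 CPM used a prior count of 2. Total counts of 9053521 to 16546187 limit precision, mainly for members under 1 CPM. Coordinates and transcript lengths came from GENCODE M21, and promoter windows from RefSeq.

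Libraries of the same replicate number correlated in their deviations from the group means in every pair (0.22 to 0.61), and the biological coefficient of variation was 18.0% without and 9.96% with the number as a block, so the numbers were taken to pair the libraries and a blocked fit is given where calls change. Alternatives were other scalings and filters, DESeq2 1.42.0, the ribosomal RNA share as a covariate and leaving out libraries. The test of the averaged isoproterenol effect was checked on simulated data, drawn separately for each fit from its own model and spread. Very low and very high genes were left unchanged there. Of changes of 0.25 on the log2 scale the test recovered 4.48% without the block and 44.8% with it. Of changes of 0.5 it recovered 65.7% and 100%. Both fits thus saw different data, so these values do not measure a gain from the block. Members named were all of complexes II and III, those with the smallest p or extreme levels in the others, the isoform pairs, and the 21 that passed with the block, the last added after the calls were seen; *Ndufb4*, *Ndufb4c*, *Ndufs4* and untested members were named for other reasons. Members and lists were chosen with earlier results of these data known, and the division into roles after values were seen. An item is not reported here.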

Additional observations from a re-analysis of the deposited data

Results flagged for a closer look

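In 13 of 204 groups of 4 libraries examined, 1 library lay far from the other 3 relative to the range of the group (Dixon's criterion at the 95% level); chance alone flags about 1 in 20 groups. In these 13 cases the library was of replicate 6 in 7, of replicate 5 in 5 and of replicate 3 in 1. The same library can recur, as sgRNA stimulated replicate 6 did in 4 cases, and summed levels contain single members. The cases are thus not separate observations. In sgRNA stimulated cells replicate 6 was the lowest library for the summed level of all members (16900 CPM, others 21370 to 22030), of complex IV (3422 CPM, others 4373 to 4505), for *Uqcrc2* (307.5 CPM, others 423.9 to 436.3) and for *Cox8a* (598.2 CPM, others 751.4 to 779.2). In sgRNA control cells *Uqcrc2* was also lowest in replicate 6 (304.1 CPM, others 385.6 to 395.5), whereas *Cox7a1* was highest there (1.52 CPM, others 0.374 to 0.490). In empty vector stimulated cells *Ndufb10* was lowest in replicate 6 (137.2 CPM, others 186.1 to 195.8).

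Replicate 5 was the highest library for *Sdha* (409.0 CPM, others 234.3 to 260.2) and *Atp5g2* (32.7 CPM, others 22.8 to 23.8) in empty vector control cells. It was also highest for *Uqcrfs1* in empty vector stimulated (251.7 CPM, others 196.2 to 204.3) and sgRNA stimulated cells (309.0 CPM, others 215.3 to 215.9), and for *Cox6a1* in sgRNA control cells (952.2 CPM, others 701.7 to 734.4). *Ndufb1* was highest in replicate 3 of empty vector stimulated cells (72.9 CPM, others 43.7 to 46.1). No member, and no gene, passed the interaction test of the isoproterenol effect between plasmids, which does not show that the effects were alike.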

How the results depend on the processing

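The number of members that passed for the averaged isoproterenol effect, 0 without the block, was 21 with the replicate block, 2 with DESeq2, 1 with the ribosomal RNA share as covariate and 19 with both that share and the block (9.35% of all genes lower); leaving out a library or replicate number gave 0 to 4, the highest without empty vector control replicate 6. In empty vector cells it was 15 with the replicate block and 10 with the block and the share (4.02% of all genes lower), and in sgRNA cells 1 and 1 (4.29%). With the block as the starting point, the averaged count of 21 was 0 without the block and 11 to 25 with a library or number left out, 31 with no filter on low counts (4.75% of all genes lower) and 24 with DESeq2. The count of 15 in empty vector cells was 0 without the block, 27 with no filter (2.73%), and 3 to 18 with something left out: 3 without empty vector control replicate 3, replicate 4 or replicate 5, 5 without empty vector control replicate 5, empty vector stimulated replicate 4 or 6, or replicate 3, 7 without replicate 6, and 8 without empty vector control replicate 4 or stimulated replicate 5. The count of 1 in sgRNA cells was 0 without the block, 4 with no filter (2.3%) and 0 to 3 with something left out, with 0 without any replicate number or most sgRNA libraries and 3, of which 2 were higher, without empty vector stimulated replicate 3. The blocked sgRNA effect passed 0 members but 10 of 85 with no filter, 9 higher and 1 lower, beside 0.804% and 0.672% of all genes. All shares with no filter are over 34821 genes, including those with low counts, and so do not compare like with like. Where a count stands without a share of all genes, a change in calls over all genes cannot be told from a change in the members. The cause of these differences between settings was not tested. Leaving out a replicate number moved the difference in the log2 ratio of *Cox8b* to *Cox8a* from 0.125 to between −0.068 and 0.437 for isoproterenol and from 0.12 to between −0.083 and 0.471 for sgRNAs. The block changed no call of a member for the sgRNA effect or the interaction. Low counts limit *Cox7a1*, *Cox8b* and *Cox6a2*, and the median SE of the members without the block, 0.11 for averaged effects and 0.16 within a plasmid or treatment, limits which changes could be told from 0.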
